A study of Sus scrofa with 15 samples.

Results

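Expression of 8 genes was followed in the testes of male piglets across 5 diet groups. The genes were GBA3, GLB1L2, GOT1, CIB4, C1orf116 and 3 genes listed by Ensembl identifier alone, ENSSSCG00000007738, ENSSSCG00000049464 and ENSSSCG00000046140. They are 8 of the 30476 genes of the deposited count table and were picked by their values, for a difference of soy formula from estradiol formula or from plain milk formula. Levels in those 3 groups are therefore given as a description, and calls among the 8 genes in comparisons of them are read as no evidence. For the 8 genes only the comparison of M + G with Sow, whose libraries the choice did not use, is read as a test. All 8 genes passed the filter on low counts, which kept 15634 genes.

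Testis RNA was collected on postnatal day 21 and sequenced in 3 libraries per group. Male piglets suckled until day 2 and were then fed from bowls. The Sow group received sow milk, the Milk group a formula based on cow's milk, and the Soy group a soy formula. The other 2 groups received the formula of the Milk group with an addition. This was 17beta estradiol, aimed at a serum E2 of 15 to 30 pmol/L (the M + E2 group), or pure genistein, 84 mg/L of diet (the M + G group). M + E2 and M + G thus differ from Milk by 1 compound, whereas Soy differs from Milk in the whole formula and not in its isoflavones alone. M + E2 served as the positive control for estrogen. The serum E2 that the study measured in M + E2 was far above the range aimed at, and that in Milk was above it too. Whether each library came from a single piglet is not given in the sources used here, and p-values measure the spread between these libraries.

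Estradiol given to a developing male is known to act on the pituitary and on the testis itself, lowering the gonadotropin drive and with it the androgen output of Leydig cells. Genistein, the main isoflavone of soy, binds estrogen receptors weakly and circulates largely as conjugates. Among the 8 genes, GBA3 encodes the cytosolic beta-glucosidase, which can split plant flavonoid glucosides, and GLB1L2 encodes a relative of lysosomal beta-galactosidase. GOT1 encodes cytosolic aspartate aminotransferase, a part of the malate-aspartate shuttle. ENSSSCG00000007738 is named ASL by the gene name table, the gene of argininosuccinate lyase, which releases arginine and fumarate. CIB4 encodes a calcium and integrin binding protein, and C1orf116 is also known as the specifically androgen-regulated gene. The other two identifiers have no name in the tables used here.

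By symbol, 4 of the 8 genes had a position in the RefSeq annotation of Sscrofa11.1, and all 4 are protein coding. C1orf116 (C9H1orf116 in RefSeq) lies at chr9:67648333-67661384, CIB4 at chr3:112415709-112457253, GOT1 at chr14:110608422-110635825 and ASL at chr3:16637481-16646869. CIB4 and ASL share a chromosome but are not neighbours.

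Library totals ranged from 6097552 to 9488579 reads on genes, with a median of 8198038. Levels are given in CPM, the read counts divided by library sizes after TMM scaling. In the table, 1 Sow and 1 Soy column carry no replicate number, and these libraries are called unnumbered. Sow 2 stood apart from the rest: 4 of the 105 pairs of libraries had r below 0.9 on log2 CPM across genes, and all 4 held Sow 2. It was left out of the fit and of Sow means, as in the study's own methods, and its values are given separately. Sertoli and Leydig cell markers were present in every group, so the tissue label was borne out.

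The group pattern named by the choice was seen in 6 of the 8 genes, which were picked for such differences. Its share over all genes is not given here, so nothing is read from this count. GBA3, C1orf116, CIB4, GOT1, ASL and ENSSSCG00000049464 had their highest group mean in Soy and their lowest in M + E2. GLB1L2 was instead low in Milk, with M + E2 close to Soy. ENSSSCG00000046140 went the opposite way and was nearly absent in Soy.

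**Figure D1:**
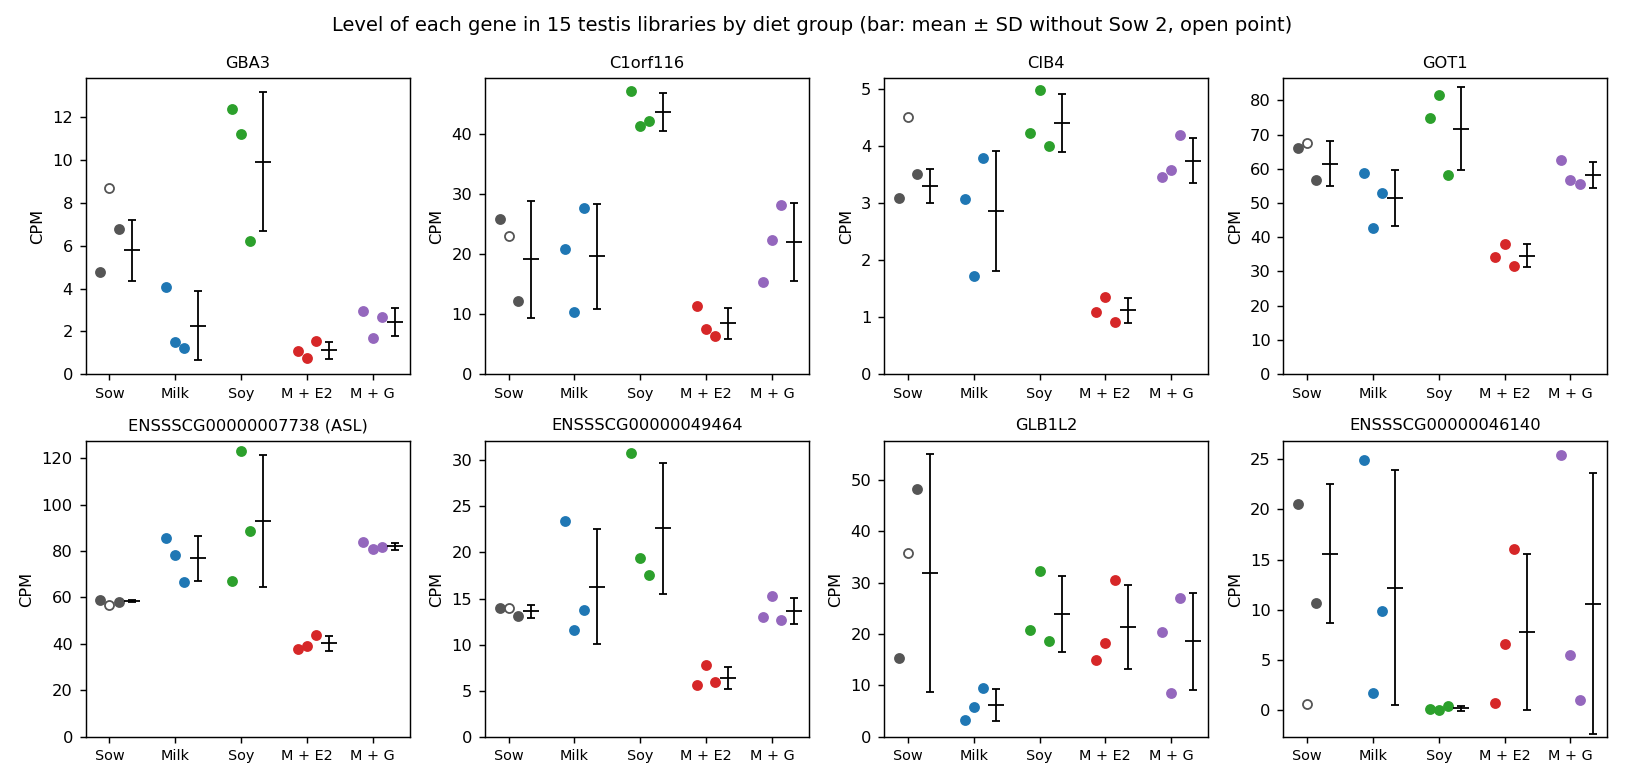
Level of each of the 8 genes in CPM (vertical axis, linear) in 15 testis libraries of the 5 diet groups. Each point is a library, the open point is Sow 2, and the bar gives the group mean ± SD without Sow 2. In 6 panels the Soy libraries lie above the M + E2 libraries, GLB1L2 is lowest in Milk, and ENSSSCG00000046140 lies at or below 0.47 CPM in Soy.

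GBA3, the beta-glucosidase, had the widest ratio of group means among these 6 genes, 8.89 between Soy and M + E2. Its level was 12.4, 11.2 and 6.23 CPM in Soy unnumbered, 2 and 3, and 1.09, 0.737 and 1.53 CPM in M + E2 1, 2 and 3. It was 4.77 and 6.79 CPM in Sow unnumbered and 3 (8.71 in Sow 2), 4.09, 1.48 and 1.22 CPM in Milk 1, 2 and 3, and 2.94, 1.69 and 2.65 CPM in M + G 1, 2 and 3. Soy and Sow formed the upper levels and overlapped, and the groups fed milk formula with or without additions formed the lower levels. The M + E2 values rest on 6 to 15 reads per library, against 53 to 101 reads in Soy. The fitted log2 fold change was 3.07 (SE 0.472) for Soy over M + E2 and 2.12 (SE 0.442) for Soy over Milk. Milk and M + E2 overlapped, because Milk 2 and Milk 3 lay below the highest M + E2 library, and the log2 fold change of M + E2 relative to Milk was −0.94 (SE 0.506). The order of means was Soy, Sow, M + G, Milk and M + E2, and of the neighbours in it only Sow and M + G had libraries that did not overlap.

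GLB1L2, the other glycosidase gene, followed a different order, Sow, Soy, M + E2, M + G and Milk. It reached 20.7, 32.3 and 18.7 CPM in Soy unnumbered, 2 and 3, and 15.0, 18.3 and 30.5 CPM in M + E2 1, 2 and 3. In Milk 1, 2 and 3 it was 3.22, 5.79 and 9.42 CPM, in M + G 1, 2 and 3 it was 20.4, 8.43 and 27.0 CPM, and in Sow unnumbered and 3 it was 15.4 and 48.1 CPM (35.8 in Sow 2). Every Milk library lay below every Soy, Sow and M + E2 library, and M + G 2 lay within the Milk range. Soy and M + E2 overlapped, with a log2 fold change of 0.12 (SE 0.483). The log2 fold change was 1.93 (SE 0.522) for Soy over Milk and 1.81 (SE 0.521) for M + E2 over Milk, so the label of a gene low with estradiol did not hold for GLB1L2. The libraries of 1 group varied widely, up to 23.1 CPM (SD, n = 2) in Sow, and no neighbours in the order were separated.

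GOT1, the aspartate aminotransferase, showed the narrowest spread between groups of the 6 genes, with a ratio of 2.07 between the Soy and M + E2 means. It was 75.0, 81.7 and 58.3 CPM in Soy unnumbered, 2 and 3, and 34.3, 38.1 and 31.5 CPM in M + E2 1, 2 and 3. In Milk 1, 2 and 3 it was 58.8, 42.7 and 52.8 CPM, in M + G 1, 2 and 3 it was 62.7, 56.7 and 55.6 CPM, and in Sow unnumbered and 3 it was 66.1 and 56.8 CPM (67.5 in Sow 2). All 3 M + E2 libraries lay below all others, and the other groups overlapped along the order Soy, Sow, M + G and Milk. Soy exceeded M + E2 by a log2 fold change of 1.00 (SE 0.172), at the 2-fold limit of a call, and the change was −0.55 (SE 0.172) for M + E2 relative to Milk. Soy over Milk was 0.46 (SE 0.170), with overlapping libraries.

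ASL, the arginine-producing lyase, was also lowest in all 3 M + E2 libraries. Its level was 67.0, 123 and 88.7 CPM in Soy unnumbered, 2 and 3, and 37.7, 39.3 and 43.8 CPM in M + E2 1, 2 and 3. In Milk 1, 2 and 3 it was 85.7, 78.2 and 66.5 CPM, in M + G 1, 2 and 3 it was 83.8, 80.7 and 81.8 CPM, and in Sow unnumbered and 3 it was 58.9 and 58.2 CPM (56.8 in Sow 2). The Soy libraries overlapped with the Milk and M + G libraries, and the 3 Sow libraries lay between M + E2 and all other groups. In the order Soy, M + G, Milk, Sow and M + E2, the last steps, from Milk to Sow and from Sow to M + E2, were free of overlap. Fitted log2 fold changes were 1.16 (SE 0.197) for Soy over M + E2, 0.26 (SE 0.193) for Soy over Milk and −0.90 (SE 0.196) for M + E2 relative to Milk. The M + G libraries were tight, 82.1 ± 1.53 CPM (SD, n = 3), and the Soy libraries were not, 93.0 ± 28.5 CPM (SD, n = 3).

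CIB4, whose product binds calcium and integrins, was a low count gene, with 8 to 11 reads in the M + E2 libraries and 14 to 45 elsewhere. It was 4.22, 4.98 and 4.0 CPM in Soy unnumbered, 2 and 3, and 1.09, 1.35 and 0.915 CPM in M + E2 1, 2 and 3. In Milk 1, 2 and 3 it was 3.07, 1.72 and 3.79 CPM, in M + G 1, 2 and 3 it was 3.45, 3.58 and 4.19 CPM, and in Sow unnumbered and 3 it was 3.09 and 3.51 CPM (4.51 in Sow 2). M + E2 lay below every other library, and Soy overlapped with M + G. Fitted log2 fold changes were 1.92 (SE 0.319) for Soy over M + E2, 0.60 (SE 0.291) for Soy over Milk and −1.33 (SE 0.327) for M + E2 relative to Milk. In the order Soy, M + G, Sow, Milk and M + E2, only the last step, from Milk to M + E2, was free of overlap.

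C1orf116, the androgen-regulated gene, was the one gene for which all 3 Soy libraries lay above every library of every other group. The Soy levels were 47.2, 41.4 and 42.2 CPM in unnumbered, 2 and 3, and those of M + E2 1, 2 and 3 were 11.4, 7.49 and 6.41 CPM. Milk 1, 2 and 3 had 20.9, 10.3 and 27.6 CPM, M + G 1, 2 and 3 had 15.3, 22.4 and 28.2 CPM, and Sow unnumbered and 3 had 25.9 and 12.2 CPM (23.0 in Sow 2). Milk, M + G and Sow overlapped with each other, and Milk 2 lay below the highest M + E2 library. The means followed the order Soy, M + G, Milk, Sow and M + E2. Fitted log2 fold changes were 2.32 (SE 0.380) for Soy over M + E2, 1.13 (SE 0.360) for Soy over Milk and −1.20 (SE 0.377) for M + E2 relative to Milk. Soy exceeded M + G by 0.97 (SE 0.356) and Sow by 1.19 (SE 0.413) on the log2 scale, also without overlap.

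ENSSSCG00000049464, an unnamed gene, was below all other libraries in all 3 M + E2 libraries. It was 30.8, 19.4 and 17.6 CPM in Soy unnumbered, 2 and 3, and 5.58, 7.74 and 5.9 CPM in M + E2 1, 2 and 3. In Milk 1, 2 and 3 it was 23.4, 11.6 and 13.8 CPM, in M + G 1, 2 and 3 it was 13.0, 15.3 and 12.7 CPM, and in Sow unnumbered and 3 it was 14 and 13.1 CPM (14 in Sow 2). Soy lay above M + G and Sow, and Milk 1 reached into the Soy range. In the order Soy, Milk, M + G, Sow and M + E2, the step from Sow to M + E2 alone was free of overlap. Fitted log2 fold changes were 1.77 (SE 0.285) for Soy over M + E2, 0.45 (SE 0.270) for Soy over Milk and −1.32 (SE 0.285) for M + E2 relative to Milk.

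ENSSSCG00000046140, also unnamed, gave 1, 0 and 4 reads in Soy unnumbered, 2 and 3. The 3 Soy libraries together held 5 reads, or 0.201 CPM, with an exact Poisson 95% interval of 0.0652 to 0.469 CPM that covers counting error only. A library with 0 reads may still hold up to 3. Elsewhere the level varied over more than an order of magnitude within each group: 0.681, 6.63 and 16.1 CPM in M + E2 1, 2 and 3, and 24.9, 1.72 and 9.91 CPM in Milk 1, 2 and 3. In M + G 1, 2 and 3 it was 25.4, 5.48 and 0.992 CPM, and in Sow unnumbered and 3 it was 20.5 and 10.7 CPM, with 0.601 CPM (4 reads) in Sow 2. The order of means was Sow, Milk, M + G, M + E2 and Soy, and of its neighbours M + E2 and Soy alone did not overlap. Low libraries occurred in every group, and only in Soy were all 3 libraries low. The fitted log2 fold change was −5.23 (SE 1.64) for Soy relative to M + E2 and −5.84 (SE 1.62) relative to Milk. These values depend on the prior count because of the 5 Soy reads. The name of a gene high in soy did not hold here in any library.

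The comparison of Soy with M + E2 sets the soy diet beside the estrogen control. A call needed an adjusted p (Benjamini-Hochberg) of at most 0.05 in edgeR's quasi-likelihood test together with a change of at least 2-fold. Of the 15634 genes, 23 were called (0.147%). In Soy, 19 were higher (0.122%) and 4 lower (0.0256%), and 6 of the 8 genes described here were among those called higher. Since this contrast chose them, nothing is read from that count. Their libraries did not overlap between Soy and M + E2, which also held for 12.8% of all genes in that direction and, for ENSSSCG00000046140 in the other, for 7.98%. The named genes with the largest falls were THBS4, a matricellular protein (log2 fold change −1.76, SE 0.282), and TVP23A (−1.76, SE 0.275), both called by edgeR with an adjusted p of 0.0371.

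**Figure D2:**
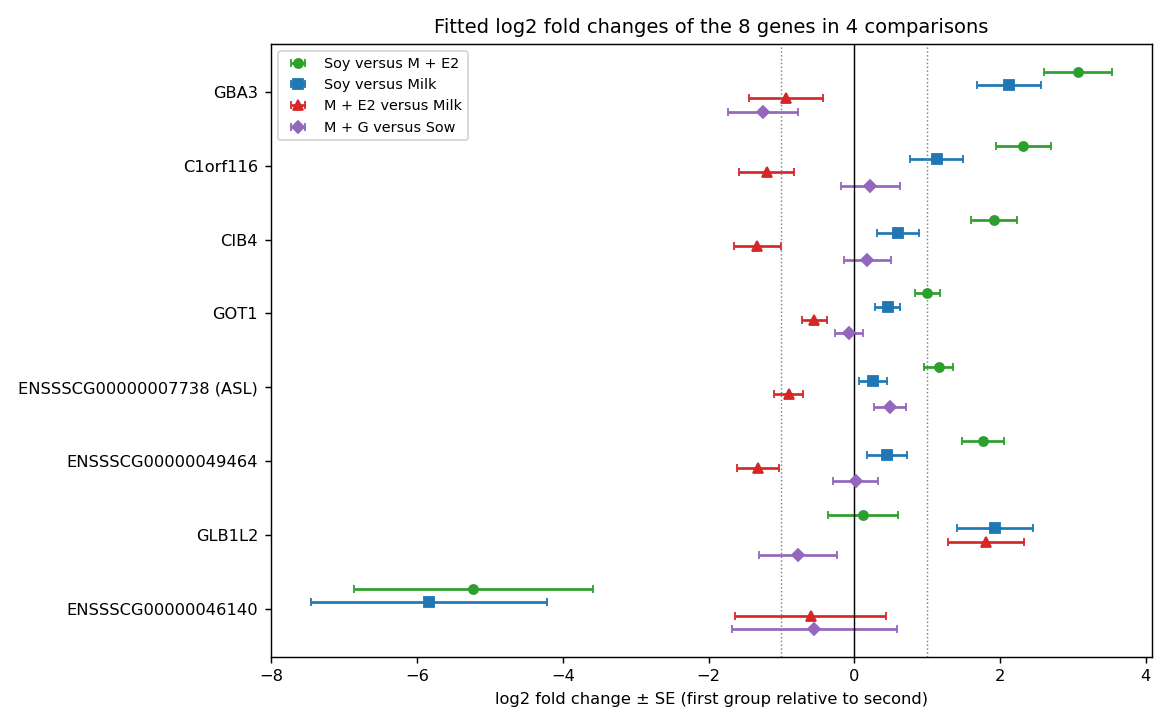
Fitted log2 fold change (horizontal axis) of the 8 genes with its SE (bars) in Soy versus M + E2 (circles), Soy versus Milk (squares), M + E2 versus Milk (triangles) and M + G versus Sow (diamonds), from 1 fit of 14 libraries, with dotted lines at 2-fold. For 6 genes the circles lie at 1.00 to 3.07, the triangles lie at −0.55 to −1.33 and, except for GBA3, the diamonds lie between −0.07 and 0.49.

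The calls rested on few libraries. The direction of the 6 genes was set by their choice, and over the 23 or 24 alternatives run the log2 fold change of Soy over M + E2 ranged from 2.84 to 3.39 for GBA3, 2.17 to 2.63 for C1orf116, 1.81 to 2.07 for CIB4, 1.49 to 1.92 for ENSSSCG00000049464, 0.90 to 1.37 for ASL and 0.89 to 1.13 for GOT1. The number of genes called by edgeR fell to 0 without Soy 2, M + E2 1, M + E2 2, M + E2 3, M + G 2 or M + G 3, with 1403 to 2006 genes at an unadjusted p under 0.05. It was 3 without Soy unnumbered, with ASL among them. In fits that left out a Sow library, Sow 2 took its place. With Sow 2 in place of Sow 3 the number was 5, with C1orf116 among them. The number rose to 47 without Soy 3, 43 without Milk 1 and 38 without Milk 2 or without Milk 3. All 6 genes were called each time, which is read as no evidence because they were picked on this contrast. DESeq2's Wald test called 143 genes, and edgeR's exact test, fitted on these 2 groups alone, called 203 of 14630.

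In Soy versus Milk, which the choice also used, edgeR called 0 genes (381 at an unadjusted p under 0.05), DESeq2 called 6 and the exact test called 5. GBA3, C1orf116, CIB4 and GLB1L2 were higher in Soy without overlap, as were 3.29% of all genes, and ENSSSCG00000046140 was lower, as were 1.77%. Soy was 4.36-fold above Milk for GBA3, 3.82-fold for GLB1L2, 2.18-fold for C1orf116 and 1.51-fold for CIB4. GOT1, ASL and ENSSSCG00000049464 overlapped between Soy and Milk, with fold changes of 1.20 to 1.37.

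In M + E2 versus Milk, which differ by the added estradiol, edgeR called 0 genes (2772 at an unadjusted p under 0.05), DESeq2 called 122 and the exact test called 92. CIB4, GOT1, ASL and ENSSSCG00000049464 were lower in M + E2 without overlap, as were 10.1% of all genes, and GLB1L2 was higher, as were 7.83%. Without Milk 3, edgeR called 1256 genes. The log2 fold change of M + E2 relative to Milk ran over the alternatives from −1.26 to −0.21 for GBA3 and from 1.45 to 2.26 for GLB1L2.

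Both comparisons share the Milk libraries, so their values are not independent. Side by side, the log2 fold change from Milk was 2.12 in Soy and −0.94 in M + E2 for GBA3, 1.13 and −1.20 for C1orf116, and 0.26 and −0.90 for ASL. Of the 6 genes, CIB4 alone was separated from Milk without overlap in both groups, by 0.60 and −1.33. GLB1L2 was above Milk in both groups, by 1.93 and 1.81.

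M + G versus Sow was the comparison that the choice of genes did not use. The edgeR test called 9 of 15634 genes (0.0576%) with 3 higher in M + G (0.0192%) and 6 lower (0.0384%). It called 0 of the 8 genes described here. Of these, GBA3 and ASL had an unadjusted p under 0.05 in this test, as did 3684 of the 15634 genes, so nothing is read from that count. DESeq2 also called 0 of the 8, and the exact test called GBA3. Over all genes DESeq2 called 343. The exact test, fitted on these 2 groups alone, called 956 of 14736, and the quasi-likelihood test fitted on them alone called 793. The edgeR count was 2039 without Sow 3 and 1304 without Sow unnumbered. In both of these fits Sow 2, otherwise left out, took the place of the library removed. The count was 70 without Milk 3, 28 without Soy 3 and 16 without Soy unnumbered. Without M + G 2 or M + G 3 it was 1, and without M + G 1 it was 3. It was 4 without Milk 1, Soy 2 or M + E2 3, and 5 without M + E2 1 or M + E2 2. Ribosomal protein genes summed to 28100 to 42000 CPM in M + G and 60500 to 71200 CPM in Sow, and 6 endothelial markers to 643 to 817 CPM in M + G and 364 to 437 CPM in Sow. The part of these differences in the values of the 8 genes was not tested. ASL was higher in M + G without overlap, as were 25.4% of all genes, and GBA3 was lower, as were 28.2%. The named calls were GPR4, a proton-sensing receptor, and APLN, the gene of apelin, which were higher in M + G by 1.60 and 1.58 on the log2 scale (adjusted p of 0.0497 in edgeR for both). PHYHIPL and TAGLN3 fell by 4.27 and 2.04 on that scale (adjusted p of 0.0094 in edgeR for both).

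GBA3 was 2.42 ± 0.654 CPM (SD, n = 3) in M + G and 5.78 ± 1.43 CPM (SD, n = 2) in Sow. The log2 fold change was −1.25 (SE 0.478) and missed the threshold in edgeR, with an adjusted p of 0.155. Over the alternatives its adjusted p ran from 0.0175 to 0.326. It was called with all 3 Sow libraries (−1.44, adjusted p of 0.0341 in edgeR) and with the 2 groups alone (−1.22, 0.0460). It was also called with Sow 2 in place of Sow unnumbered (−1.67, adjusted p of 0.0423 in edgeR). These settings called many genes, 1585 of 15328, 793 of 14736 and 1304 of 15679 tested, respectively. The calls of GBA3 in them are therefore not particular to it. GBA3 was lower in 3 of 3 M + G libraries than in each of the 3 Sow libraries.

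ASL was 82.1 ± 1.53 CPM (SD, n = 3) in M + G and 58.5 ± 0.521 CPM (SD, n = 2) in Sow. The log2 fold change was 0.49 (SE 0.220) with an adjusted p of 0.200 in edgeR, and it was below 2-fold under every alternative run, where the adjusted p ran from 0.0105 to 0.354. The log2 fold changes of the others were 0.22 for C1orf116, 0.18 for CIB4, 0.02 for ENSSSCG00000049464, −0.07 for GOT1, −0.77 for GLB1L2 and −0.55 for ENSSSCG00000046140, with adjusted p in edgeR from 0.379 to 0.978. The SE of these values ran from 0.190 for GOT1 to 1.13 for ENSSSCG00000046140, and differences within it were not detectable at this depth and number of libraries.

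Between M + G and Milk, which differ by the added genistein, the libraries of all 8 genes overlapped, while 2.99% of all genes were higher in M + G without overlap and 1.73% lower. Deviations of same-numbered libraries of these groups correlated positively, though no pairing is stated in the sources used here. Between same-numbered libraries, M + G was higher in 3 of 3 for GLB1L2, GOT1 and CIB4. It was higher in 2 of 3 for GBA3, C1orf116, ASL and ENSSSCG00000046140 and in 1 of 3 for ENSSSCG00000049464. The share over all genes is not given here, so nothing is read from these counts. The log2 fold change of M + G relative to Milk was between −0.26 and 0.38 for the 6 genes, with SE from 0.170 to 0.466. GLB1L2 was 1.58 (SE 0.521) higher in M + G. Against M + E2, which shares the milk formula and carries an addition too, the 6 genes were higher in M + G without overlap, as were 13.0% of all genes, by 0.72 (SE 0.172) for GOT1 to 1.70 (SE 0.320) for CIB4 on the log2 scale.

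Soy and M + G both carry genistein, one in the soy formula and the other as the pure compound in milk formula. GBA3, C1orf116 and ENSSSCG00000049464 were higher in Soy than in M + G without overlap, as were 4.23% of all genes, by 2.02 (SE 0.433), 0.97 (SE 0.356) and 0.71 (SE 0.271) on the log2 scale. CIB4, GOT1 and ASL overlapped, with log2 fold changes of 0.22, 0.29 and 0.17. ENSSSCG00000046140 was lower in Soy without overlap, as were 3.97% of all genes.

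Relative to Sow, C1orf116, CIB4, ASL and ENSSSCG00000049464 were higher in Soy without overlap, as were 19.0% of all genes, and ENSSSCG00000046140 was lower, as were 18.1%. With Sow 2 counted, CIB4 overlapped, since Sow 2 had 4.51 CPM. GBA3 was not separated between Soy and Sow, with a log2 fold change of 0.77 (SE 0.463). All 6 genes had lower M + E2 than Sow levels without overlap, as were 33.9% of all genes. The difference ran from −0.50 (SE 0.217) for ASL to −2.30 (SE 0.512) for GBA3. In Milk relative to Sow, GBA3 and GLB1L2 were lower without overlap, as were 18.4% of all genes, by log2 fold changes of −1.36 (SE 0.487) and −2.35 (SE 0.559), and ASL was higher, as were 13.0%.

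The 6 genes were chosen for a shared pattern over groups, which itself raises their correlation across all libraries. Over the 15 libraries the median Pearson's r of their 15 pairs was 0.735 on log2 CPM, from 0.500 to 0.935. The choice, the diet groups and the shared libraries enter this value. After each group's mean was subtracted, the median was 0.255, from −0.270 to 0.624. The highest within-group values were those of GOT1 with ENSSSCG00000049464 (0.624), CIB4 with GOT1 (0.620) and CIB4 with C1orf116 (0.612). In the Milk group, C1orf116, CIB4, GOT1 and ENSSSCG00000049464 each had their lowest level in Milk 2, and GBA3 and ASL in Milk 3.

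**Figure D3:**
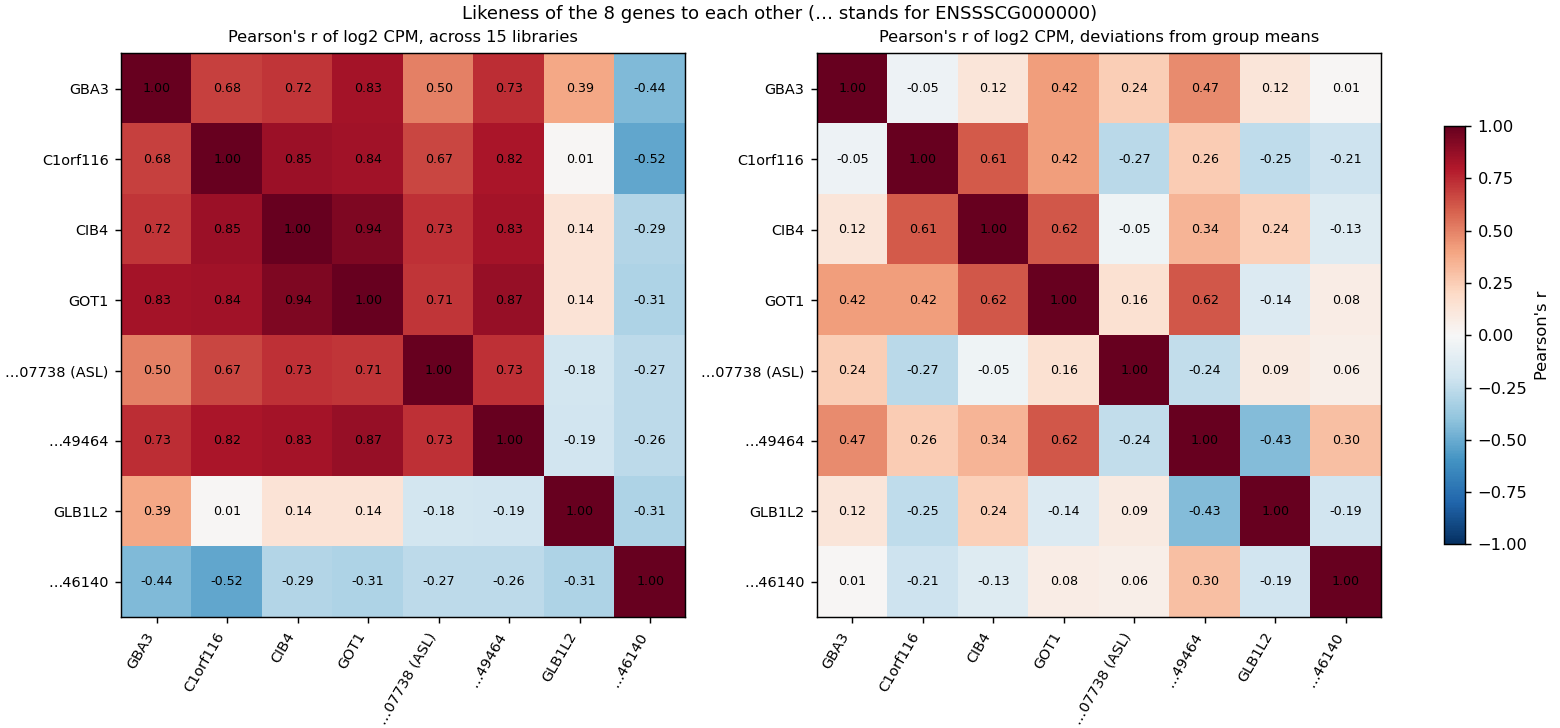
Pearson's r (color, −1 to 1) between the log2 CPM of the 8 genes over 15 libraries, at left as measured and at right after subtraction of the group means. The block of 6 genes at left has r of 0.500 to 0.935, and the same block at right has r of −0.270 to 0.624, whereas GLB1L2 and ENSSSCG00000046140 stand outside the block.

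Genes with a symbol whose log2 CPM was most like each gene over the 15 libraries were looked up. The search covered the 15328 genes that passed the filter with all 15 libraries. For GBA3 these were MEGF9 (r = 0.948) and the mitochondrial ND2 (r = 0.934), a subunit of respiratory complex I. For GOT1 they were LIMK2 (r = 0.967), a kinase of the actin cytoskeleton, and PSMD3 (r = 0.957), a proteasome subunit. CIB4 was most like LGMN, a lysosomal protease, and SRXN1, which restores oxidized peroxiredoxins, both at r = 0.928. C1orf116 was most like NEK6 (r = 0.884) and FAM210B (r = 0.882), ASL like SRPRA (r = 0.893) and NARS1 (r = 0.890), and ENSSSCG00000049464 like GDF9 (r = 0.951) and MAP2K1 (r = 0.933). GLB1L2 (ATG14 at 0.844 and HERC5 at 0.826) and ENSSSCG00000046140 (EPB42 at 0.700 and UBALD2 at 0.698) had lower values. For the mean of the 8 standardized levels, the nearest were MFAP3 (0.938), PSMD3 (0.936), LIMK2 (0.932), PDHA1 (0.922) and SRXN1 (0.922). This order depended on the measure. By Spearman's rank correlation MFAP3 ranked 3, PSMD3 94, LIMK2 41, PDHA1 39 and SRXN1 172. These genes were the highest of many compared, and the values describe these libraries.

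Related genes of each pathway were then read from 6 lists, which leave out the 8 genes themselves. Since the 8 genes were picked for differences of Soy, nothing is read from their distance to the list values. Of the 99 tested entries, edgeR called 0 in Soy versus M + E2 (22 at an unadjusted p under 0.05, 4 called by DESeq2 and 3 by the exact test). In Soy versus Milk it also called 0 (1, 0 and 0), in M + E2 versus Milk 0 (22, 1 and 0) and in M + G versus Sow 0 (23, 1 and 9). Of the other beta-glycosidases and their relatives, 19 were tested, with a median log2 fold change of 0.10 in Soy versus M + E2 (−0.18 to 1.34), beside 0.03 over all genes, 3.07 for GBA3 and 0.12 for GLB1L2. GBA2, the non-lysosomal glucosylceramidase, had 0.03 (SE 0.182).

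Around GOT1 and ASL, 21 genes of aspartate and glutamate metabolism and of the malate-aspartate shuttle had a median of 0.37 in Soy versus M + E2, beside 0.03 over all genes, and 15 of the 21 were above 0. None was called by edgeR, DESeq2 or the exact test, and 7 had an unadjusted p under 0.05. GOT2, the mitochondrial partner of GOT1, had 0.54 (SE 0.203), and MDH1, the cytosolic malate dehydrogenase, had 0.64 (SE 0.239). In M + E2 versus Milk the median of the list was −0.23, and in M + G versus Sow it was −0.28.

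The 13 tested genes of the CIB family and its partners had a median of 0.02 in Soy versus M + E2. CIB1 had 0.48 (SE 0.192) and CIB2 had 0.02 (SE 0.146), beside 1.92 for CIB4. Around C1orf116, 16 genes known to respond to androgen had a median of −0.11, and 5 of them were above 0. FKBP5 had −0.15 (SE 0.175). The range of the list was −0.75 to 1.32, beside 2.32 for C1orf116, which was picked for such a difference.

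The 15 genes of isoflavone and estrogen conjugation and transport had a median of 0.40 in Soy versus M + E2, and 11 were above 0. SULT1A3, a sulfotransferase, had −0.31 (SE 0.249), and SULT1E1, the estrogen sulfotransferase, had 3.01 (SE 1.44) with a level of 12.8 ± 19.0 CPM (SD, n = 3) in Soy. The 15 estrogen receptor and estrogen-responsive genes had a median of 0.11, with −0.19 (SE 0.229) for ESR1 and −0.70 (SE 0.459) for ESR2.

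**Figure D4:**
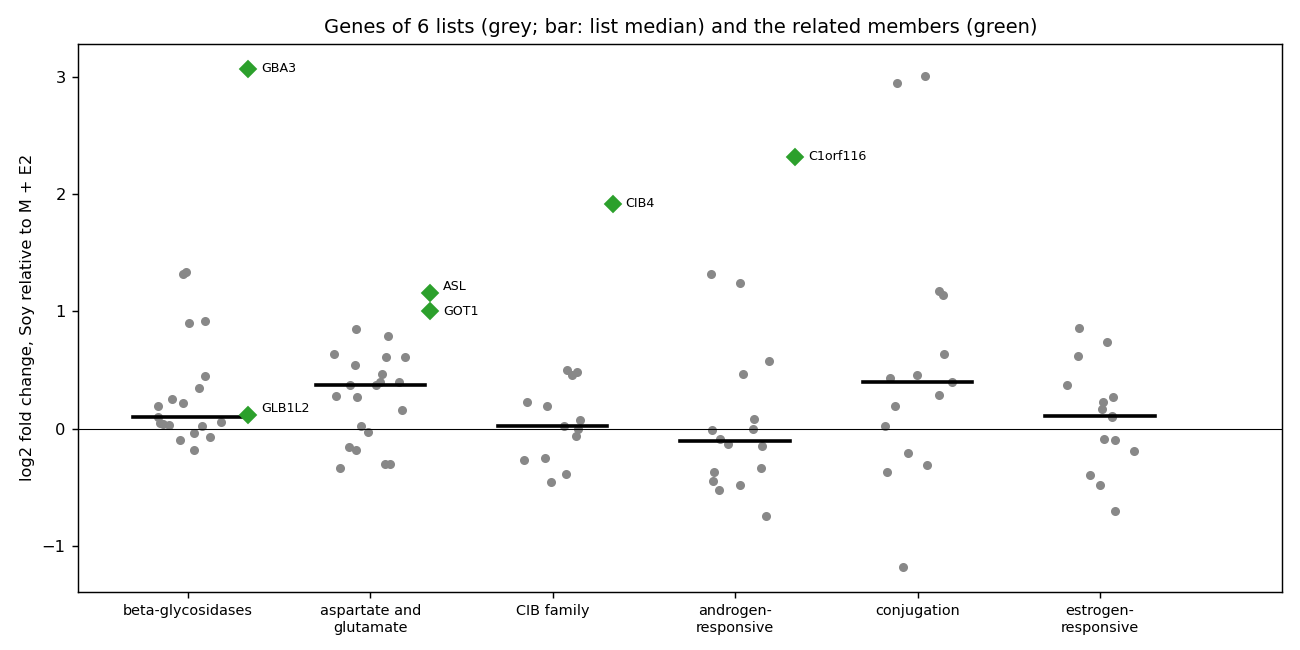
Log2 fold change of Soy relative to M + E2 (vertical axis) for the tested genes of 6 lists (grey points, spread sideways for clarity, with the list median as a bar) and for the related genes described here (green diamonds). The list medians lie between −0.11 and 0.40. GBA3, C1orf116 and CIB4, picked for such differences, lie at 1.92 to 3.07.

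Markers of testis cell types moved along with the contrast of Soy and M + E2. The summed level of 9 Leydig cell markers was 22100 to 29600 CPM in Soy and 14500 to 16000 CPM in M + E2. Their log2 fold changes had a median of 0.51, with 8 above 0 and 1 below. STAR, the cholesterol transporter among them, had the largest, 1.78 (SE 0.384), with 4310 CPM in Soy and 1210 CPM in M + E2 on average. Milk 2 had the lowest Leydig sum of all libraries, 12400 CPM, and it was the Milk library with the lowest level of 4 of the 6 genes. The sum of 12 Sertoli cell markers went the other way, 3940 to 5090 CPM in Soy and 7110 to 7960 CPM in M + E2. The median of their log2 fold changes was −0.59, with 10 below 0 and 2 above. The sum of 13 epithelial markers was 168 to 326 CPM in Soy and 68.7 to 105 CPM in M + E2, and KRT8 made up most of it. Of the 10 epithelial markers tested, 8 had a log2 fold change below 0 in Soy versus M + E2, with a median of −0.41. All markers of these lists had reads, and edgeR called 0 of them in this contrast. At an unadjusted p under 0.05 there were 3 Leydig, 7 Sertoli and 2 epithelial markers, with 1, 2 and 1 called by DESeq2 and by the exact test. In these whole-testis samples, fewer cells of a type and less RNA per cell cannot be told apart, and the part of the cell types in the levels of the 8 genes was not tested.

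Other features of the libraries stood beside single values. The 6 markers of peritubular myoid cells, which are contractile, summed to 4490 CPM in Soy 3, 3420 CPM in Milk 2 and 2450 CPM in M + G 2, against 297 to 1000 CPM in the other libraries. With these 3 libraries left out, edgeR called 82 genes in Soy versus M + E2, among them 22 of the 23 called before. The 6 genes were among these 22 but had been picked on this contrast, so nothing is read from that. Ribosomal protein genes summed to 61000 CPM in Soy unnumbered and 24500 to 28300 CPM in the other Soy libraries. Milk 1, Milk 2 and the Sow libraries in the fit were at 56600 to 71200 CPM, and Sow 2 was at 115000 CPM. Soy unnumbered had the highest GBA3, C1orf116 and ENSSSCG00000049464 levels of all libraries and the lowest ASL level in Soy, and the part of library composition in these values was not tested.

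**Figure D5:**
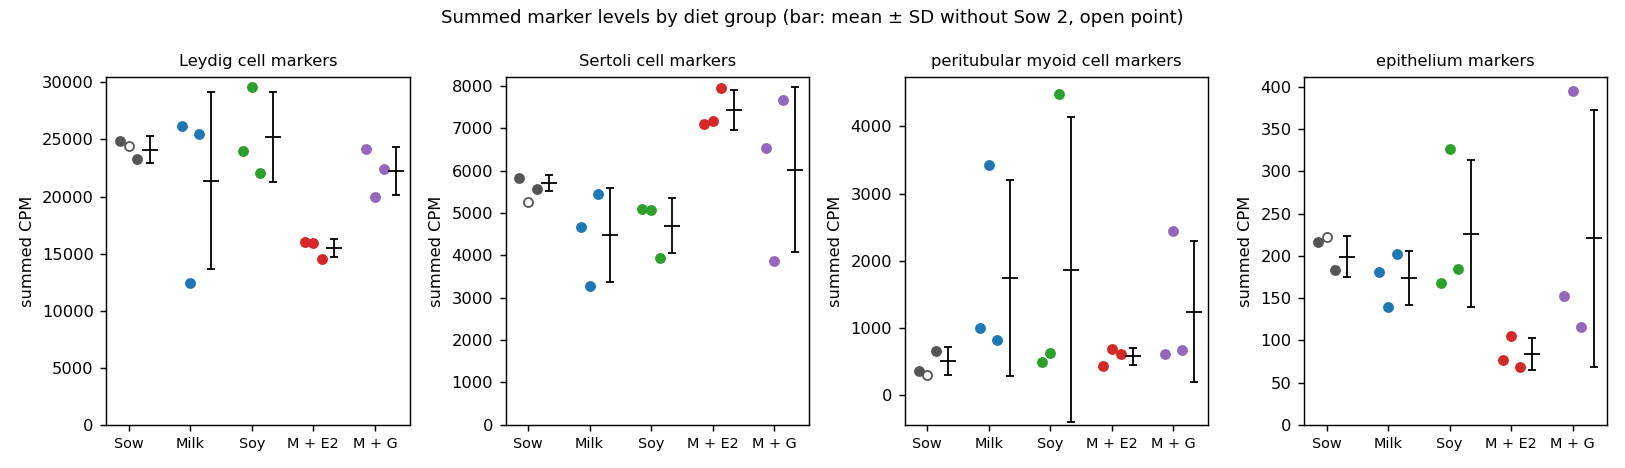
Summed CPM (vertical axes, linear) of markers of Leydig cells, Sertoli cells, peritubular myoid cells and epithelium in 15 libraries by diet group, with Sow 2 as an open point and bars for the mean ± SD without it. The Leydig sum of M + E2 (14500 to 16000 CPM) lies below Soy (22100 to 29600 CPM), and its Sertoli sum (7110 to 7960 CPM) lies above Soy (3940 to 5090 CPM).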

How the data were processed

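The 8 genes and the gene lists were chosen with earlier results of these data known. The authors aligned quality-filtered reads in the CLC Genomics Workbench, to a curated porcine gene library and, for reads left over, to the pig genome of Ensembl, and deposited read counts per gene and library. Whether the counts hold all reads, and whether counting used strand, is not given in the sources used here, so reads of overlapping genes on opposite strands cannot be told apart. Groups were taken from the labels and the column names, and 0 columns were left unused.

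Counts of 14 libraries in 5 groups (without Sow 2) were fitted together in R 4.3.3 with edgeR 4.0.16, using TMM, filterByExpr at a minimum count of 10 and the quasi-likelihood F test. Benjamini-Hochberg adjustment was over all 15634 genes. The SE is the absolute log2 fold change over the square root of F. CPM used TMM factors over 15 libraries, and r was taken on log2 CPM (prior count 1). DESeq2 1.42.0 and edgeR's exact test were alternatives. The exact test filtered and scaled the counts and estimated their spread on the libraries of the 2 compared groups alone. Its counts therefore differ from the main fit by more than the test. The fit was tested on simulated counts. Genes outside the 8 were named by rule: the first 2 tested genes of a list and any called, the 2 largest calls in each direction, the 2 genes most like each of the 8 and the 5 most like their mean. Of the genes this rule names, 2 are not reported here. Those called only by another tool were named after their values were seen. The markers STAR and KRT8 were named outside this rule.

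Replicate numbers were checked for pairing by the correlation of deviations from group means. For Milk and M + G all values were positive (r = 0.233, 0.510 and 0.425), and in the groups of the 4 comparisons they lay between −0.479 and 0.207. Sow 3 with Soy 3 reached 0.499. No pairing is stated in the sources used here, so these values do not establish one.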

Additional observations from a re-analysis of the deposited data

How the results depend on the processing

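The number of genes and of the 8 genes called by edgeR's quasi-likelihood test moved with the processing. For comparisons that the choice of the 8 genes used, nothing is read from the counts of the 8. Each of the 14 libraries was left out in turn, and Sow 2 took the place of a Sow library left out. Called genes then ranged from 0 to 47 in Soy versus M + E2 (0 to 6 of the 8) and 0 to 1 in Soy versus Milk (0 of the 8). They ranged from 0 to 1256 in M + E2 versus Milk (0 to 3) and 1 to 2039 in M + G versus Sow (0 to 1). In Soy versus M + E2 the number was 10 (2 of the 8) in a fit of the 2 groups, 51 with no filter, 143 with DESeq2 and 203 with the exact test. With at least 10 reads in every library, 3 of the 8 were called, since GBA3 and CIB4 were no longer tested and GOT1 was not called, and in M + G versus Sow 2 genes remained. In Soy versus Milk it was 1 with no filter, 6 with DESeq2 and 5 with the exact test (1 of the 8 in each of these tests). In M + E2 versus Milk it was 6 with no filter, 122 with DESeq2 and 92 with the exact test (2 of the 8 in each). In M + G versus Sow it was 16 with no filter, 343 with DESeq2 and 956 with the exact test (1 of the 8). It was 1585 with all 3 Sow libraries (1 of the 8) and 793 in a fit of the 2 groups (1 of the 8). With Sow 2 in place of Sow unnumbered it was 1304, and in place of Sow 3 it was 2039.

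With the replicate number as a block, over the numbered libraries with Sow 2 included, 17 genes were called in Soy versus M + E2 (1 of the 8), 5 in M + E2 versus Milk and 2048 in M + G versus Sow (1 of the 8, GBA3 at −1.93). The same libraries without the block, an alternative chosen after seeing the data, gave 4 (1 of the 8) in Soy versus M + E2 and 1731 (1 of the 8, GBA3 at −1.66) in M + G versus Sow. Same-numbered libraries had r of −0.0207 and −0.153 for Soy with M + E2 and −0.479 and 0.207 for Milk with Soy. The values were −0.0646, −0.0941 and −0.340 for Milk with M + E2, and 0.0659 and 0.0782 for Sow with M + G.

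Without Milk 2, Soy 3 and M + G 2, also chosen after seeing the data, 82 genes were called in Soy versus M + E2, and the value of ENSSSCG00000046140 in Soy versus Milk was −7.85. The exact test gave −1.22 for GBA3 in M + G versus Sow.

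Some values in M + G versus Sow, none of them called, turned sign. ENSSSCG00000046140 was 0.0352 with all 3 Sow libraries, 0.59 with the block, 0.88 with the numbered libraries alone, and −2.25 to 0.88 with single libraries left out. CIB4 was −0.0899 with the block and −0.0852 with the numbered libraries alone, and −0.0892 to 0.24 with single libraries left out. ENSSSCG00000049464 was −0.0546 with the block, −0.0657 without the 3 libraries of high contractile marker level, and −0.0652 to 0.0678 with single libraries left out. C1orf116 was −0.10 to 0.42 with single libraries left out. The ends of these single-library ranges at 0.88, −0.0892 and −0.10 came from fits with Sow 2 in place of a Sow library. The cause of these moves was not tested. Depth limits GBA3, CIB4 and ENSSSCG00000046140 most, which had 15 reads or fewer in some libraries.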

Other observations

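Among the related genes that edgeR did not call in Soy versus M + E2, 4 were called by DESeq2, and 3 of these by the exact test as well. They were picked for this after their values were seen. HSD17B2, which oxidizes estradiol to estrone, was 151, 81.1 and 77.4 CPM in Soy unnumbered, 2 and 3 and 14.2, 23.1 and 1.73 CPM in M + E2 1, 2 and 3, a log2 fold change of 2.95 (SE 0.775) with an adjusted p of 0.160 in edgeR. CYP19A1, the aromatase gene, was 4420, 4600 and 3570 CPM in Soy and 2070, 1740 and 1700 CPM in M + E2, a log2 fold change of 1.14 (SE 0.327, adjusted p of 0.183 in edgeR). SORD, the gene of sorbitol dehydrogenase, was 640, 608 and 389 CPM in Soy and 200, 265 and 170 CPM in M + E2 (1.32, SE 0.304, adjusted p of 0.117 in edgeR).

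GUSB, the lysosomal beta-glucuronidase, was 236, 652 and 653 CPM in Soy unnumbered, 2 and 3 and 141, 194 and 255 CPM in M + E2 1, 2 and 3, with overlap through Soy unnumbered (1.34, SE 0.331, adjusted p of 0.138 in edgeR). In Sow it was 109 to 130 CPM, and in Milk 229 to 306 CPM. Soy unnumbered was the lowest Soy library for GUSB and the highest for GBA3. For HSD17B2 and CYP19A1, Milk 2 lay within the M + E2 range, at 18.5 and 1780 CPM.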
